A study of Mus musculus with 8 samples.

Results

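The 10 genes described here are the BMP ligand genes Bmp2 and Bmp4, the BMP receptor gene Bmpr1a, the inhibitor genes Bambi, Smad6 and Smad7, and the target genes Id1, Id2, Id3 and Id4. They were chosen by name as BMP signalling and Id genes, 10 of the 46078 genes in the count table, and all 10 had counts high enough to be tested. RNA was sequenced from Lgr5-traced cells that had been sorted by flow cytometry from mouse epidermis after skin injury. Mice were Treg-depleted (without regulatory T cells, n = 4 libraries) or Treg-sufficient (with them, n = 4), and libraries 1 and 2 of each condition came from experiment 1 and libraries 3 and 4 from experiment 2. All 8 libraries carried the same strain label, Lg5-egfp-ires-creert2/R26-tdTomato, and the same injury, so none was uninjured. In such mice a Cre recombinase made under the Lgr5 gene switches on a red fluorescent reporter in Lgr5-expressing follicle stem cells, and their progeny keep it. A traced population therefore holds stem cells together with descendants that have left that state. The means of Treg depletion, the kind of injury, its timing and the age and sex of the mice are not stated in the labels. Nothing says that libraries came from separate animals, so p-values measure the spread between these libraries, which may be technical in part.

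Bone morphogenetic proteins (BMPs) are secreted ligands that bind paired type I and type II receptors. The receptors phosphorylate Smad1, Smad5 and Smad9, which enter the nucleus with Smad4 and switch on target genes. The Id genes are among the most direct of these targets and encode helix-loop-helix proteins that lack a DNA-binding region and hold E proteins off DNA. Smad6 and Smad7 are induced by the same pathway and inhibit it, and Bambi encodes a truncated receptor without kinase activity. In the hair follicle, BMP signals from inner bulge cells, dermal papilla and surrounding dermis are known to keep stem cells quiescent, and in the matrix they are required for the differentiation of the hair shaft.

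Promoter windows are shown for 4 genes: Bmp4 and Id4, which had the smallest unadjusted p-values between conditions, and Id3 and Smad6, whose levels followed each other most closely. Sequences come from RefSeq (GRCm38.p6), which gave a window of 250 bases before to 50 bases after the start for 6 of the 10 genes. They are written 5′ to 3′ on the strand of the gene, and capitals mark matches to the motifs searched. The Bmp4 window is chr14:46390620-46390919 on the minus strand, Id4 is chr13:48260866-48261165 on the plus strand, Id3 is chr4:136143572-136143871 on the plus strand and Smad6 is chr9:64022010-64022309 on the minus strand.
Bmp4: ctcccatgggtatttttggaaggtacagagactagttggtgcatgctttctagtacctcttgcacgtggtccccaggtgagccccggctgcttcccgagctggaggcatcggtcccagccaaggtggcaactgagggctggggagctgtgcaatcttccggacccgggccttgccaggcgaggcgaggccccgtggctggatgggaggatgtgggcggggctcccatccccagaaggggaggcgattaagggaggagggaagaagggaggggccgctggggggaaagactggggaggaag
Id4: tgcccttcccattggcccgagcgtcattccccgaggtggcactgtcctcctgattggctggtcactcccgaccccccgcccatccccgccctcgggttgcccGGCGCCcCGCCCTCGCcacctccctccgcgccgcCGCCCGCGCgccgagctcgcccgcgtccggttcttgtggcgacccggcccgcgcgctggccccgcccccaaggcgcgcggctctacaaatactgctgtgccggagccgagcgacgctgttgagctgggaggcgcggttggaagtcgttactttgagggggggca
Id3: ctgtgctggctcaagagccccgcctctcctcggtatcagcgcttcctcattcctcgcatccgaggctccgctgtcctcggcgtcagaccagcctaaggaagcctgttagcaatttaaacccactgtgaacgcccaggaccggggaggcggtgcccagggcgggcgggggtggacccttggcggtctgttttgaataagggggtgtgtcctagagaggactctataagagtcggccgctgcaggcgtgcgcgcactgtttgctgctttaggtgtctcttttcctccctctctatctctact
Smad6: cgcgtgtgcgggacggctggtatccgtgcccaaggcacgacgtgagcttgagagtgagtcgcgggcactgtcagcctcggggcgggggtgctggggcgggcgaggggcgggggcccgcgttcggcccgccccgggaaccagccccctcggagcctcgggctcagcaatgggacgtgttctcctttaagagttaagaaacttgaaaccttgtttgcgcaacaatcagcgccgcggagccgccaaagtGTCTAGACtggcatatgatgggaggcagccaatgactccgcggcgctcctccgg
The motifs, searched on both strands, were the GC-rich Smad element GGCGCC, the palindromic Smad element GTCTAGAC and the EGR element GCGNGGGCG. GGCGCC was in 11.9% of the 32851 RefSeq windows of this length, GTCTAGAC in 0.213% and GCGNGGGCG in 5.55%. The Id4 window held GGCGCC with its first base 148 bases before the start and 2 matches to the EGR element, which began 141 and 114 bases before the start and overlapped neither each other nor GGCGCC. The Smad6 window held GTCTAGAC with its first base 4 bases before the start, so the match ran across the start. Id2 and Bmpr1a held GGCGCC 231 and 198 bases before their starts, and the Bmp4 and Id3 windows held none of the 3 motifs. These matches describe the letters in the windows and are not evidence of binding. The 6 windows held 60.0 to 79.3% GC, with Id4 at 73.3%, against a median of 52.7% over all windows. The shares over all windows were not matched for GC content. They may therefore understate how often windows as GC-rich as these hold GGCGCC or the EGR element.

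The libraries held 22330729 to 29975347 counts in genes. Markers of the labelled cell type were present. CPM (counts scaled to library sizes after TMM normalization) of Lgr5 averaged 444 ± 92.8 with Treg depletion and 421 ± 57.5 with Tregs, and those of Krt15, a bulge keratin, 5555 ± 1876 with depletion and 5899 ± 2023 with Tregs (SD, n = 4 each). Cd34, another bulge marker, averaged 348 ± 225 CPM with depletion and 171 ± 105 CPM with Tregs. Its log2 fold change was 1.06 (SE 0.33, unadjusted p = 0.0114, adjusted p = 0.686, edgeR), with 0.99 in experiment 1 and 1.12 in experiment 2. It was the 1 gene of the 7 follicle stem cell markers with an unadjusted p under 0.05 between conditions. The 6 leukocyte markers together summed to 0.478 to 1.41 CPM across the Treg-depleted libraries and 0.153 to 2.29 CPM across the Treg-sufficient ones, so the table gives no measure of regulatory T cells themselves. Xist, the transcript of the inactive X chromosome, stood at 2713 CPM in Treg-sufficient library 2 and 72.0 CPM in Treg-depleted library 2, and at 0.968 to 2.26 CPM in the other 6. Y-linked transcripts were at 2.84 CPM in Treg-sufficient library 2 and at 314 to 417 CPM in the other 7. The fewest genes were detected in Treg-depleted library 2 (18605) and Treg-sufficient library 3 (19593). Values without these pairs of libraries are given where they differ.

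Between Treg-depleted and Treg-sufficient libraries, none of the 10 genes passed an adjusted p of 0.05 (edgeR quasi-likelihood test with experiment as a term, Benjamini-Hochberg adjustment over 16495 genes), and percent called over all tested genes was 0. At an unadjusted p under 0.05 there were 1175 genes, and DESeq2 called 84 genes, 1 of them a member (Bmp4). The genes that stood lowest in Treg-depleted cells were Bmp4, at a log2 fold change of -2.06, and Id4, at -0.53. These were also the 2 members with an unadjusted p under 0.05, against 7.12% of all tested genes. The 10 log2 fold changes had a median of -0.04, with 4 positive and 6 negative, beside a median of 0.00 over all tested genes. In no member did all 4 Treg-depleted libraries lie above or all 4 below the Treg-sufficient libraries, a pattern seen in 1.27% and 1.05% of tested genes. 

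**Figure D1:**
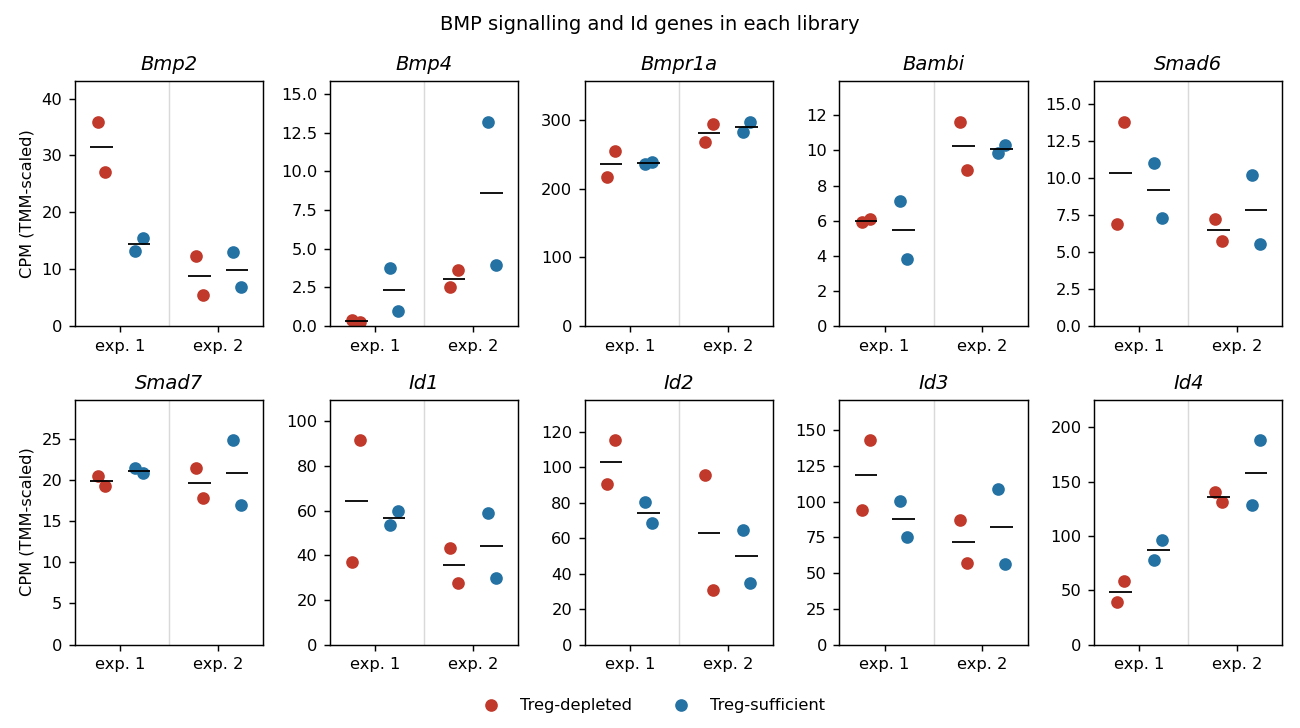
Level of each of the 10 genes in every library, in CPM (vertical axes, each from 0 on its own scale; exp., experiment), with Treg-depleted to the left of Treg-sufficient within each experiment. Points are libraries and short lines are the means of 2 libraries. Bmp4 is lower in both Treg-depleted libraries of each experiment, Id4 is lower in both of experiment 1, and Bmpr1a and Smad7 stay within narrow ranges (216 to 297 and 16.9 to 24.8 CPM).

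Bmp4 encodes a ligand made in the follicle by the dermal papilla and by differentiating epithelial cells. It had 0.378, 0.239, 2.52 and 3.62 CPM in Treg-depleted libraries 1 to 4, against 3.74, 0.956, 13.2 and 3.97 CPM in Treg-sufficient libraries 1 to 4. Within each experiment both Treg-depleted libraries lay below both Treg-sufficient ones, although the values of experiment 2 in Treg-depleted cells overlapped those of experiment 1 in Treg-sufficient cells. These are few reads: 11, 5, 65 and 102 counts in Treg-depleted libraries and 103, 28, 346 and 120 in Treg-sufficient libraries. The log2 fold change was -2.06 (SE 0.58, 95% interval -3.38 to -0.75, adjusted p = 0.686, edgeR). Within experiment 1 it was -2.88 (SE 0.86, adjusted p = 0.228) and within experiment 2 it was -1.48 (SE 0.73, unadjusted p = 0.0769). The difference between these effects was 1.40 (SE 1.11, adjusted p = 0.960), so they could not be told apart. Bmp4 was the only one of the 10 genes below in both Treg-depleted libraries of both experiments, as were 3.23% of all tested genes. DESeq2 called Bmp4 between conditions (log2 fold change -2.14, adjusted p = 0.0389), and edgeR without a filter on low counts called it at an adjusted p of 1.52e-06 among 820 genes. Leaving out Treg-sufficient library 1 brought the effect in experiment 1 to -1.59, and leaving out Treg-sufficient library 3 brought that in experiment 2 to -0.37.

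Markers of other cell types and of the cell cycle were read beside Bmp4, and none of the dermal papilla, fibroblast or cell cycle markers passed an adjusted p of 0.05 between conditions or within either experiment (edgeR). The 8 dermal papilla markers, of which 7 had counts and Sox2 was at 0, summed to 8.51 to 72.1 CPM in Treg-depleted libraries and 32.9 to 78.9 CPM in Treg-sufficient libraries. In experiment 1 the sums were 14.7 and 8.51 CPM in Treg-depleted libraries, against 45.0 and 32.9 CPM in Treg-sufficient libraries. Most of each sum was Vcan, a matrix proteoglycan gene, whose mean there was 8.68 CPM with depletion, against 35.4 CPM with Tregs (adjusted p = 0.0660) and in experiment 2 was 59.0 CPM with depletion, against 72.8 CPM with Tregs. In experiment 1 Corin averaged 0.571 CPM in Treg-depleted libraries, against 0.404 CPM in Treg-sufficient ones. Fgf7 was at 0.311 against 0.107 CPM and Fgf10 at 0.103 against 0.0694 CPM, so these 3 markers leaned the other way. Crabp1, at 1.94 against 2.88 CPM, and Rspo3, at 0 against 0.123 CPM, leaned the same way as Vcan. Rspo2 was at 0 there in both conditions. Counts of Fgf7, Fgf10, Rspo2 and Rspo3 were too low to be tested. All 9 fibroblast markers had counts. Their sums were 30.9 and 31.8 CPM in Treg-depleted libraries of experiment 1, against 101 and 43.5 CPM in Treg-sufficient libraries. Of 8 tested markers, 2 had positive and 6 negative log2 fold changes there (median -2.07). Unadjusted p was under 0.05 for 4 of them, all lower (edgeR), against 11.1% of all tested genes. Of these 4, Lum averaged 0 CPM with depletion, against 0.739 CPM with Tregs, and Col6a3 0.225 against 1.25 CPM, so both were near the floor. Col1a2 averaged 8.13 against 24.2 CPM and Dcn 2.77 against 18.7 CPM. Col3a1, not among the 4, had a log2 fold change of -3.58 that rested on 1 Treg-sufficient library at 11.1 CPM. The other Treg-sufficient library was at 0.0683 CPM. In experiment 2 the fibroblast sums overlapped, at 93.2 and 75.8 CPM in Treg-depleted libraries, against 88.9 and 137 CPM in Treg-sufficient libraries, and 4 of the 8 tested markers had positive and 4 negative log2 fold changes (median 0.03). The 4 cell cycle markers (Mki67, Top2a, Ccnb1 and Cdk1) summed to 306 and 648 CPM in Treg-depleted libraries of experiment 1, against 1627 and 1160 CPM in Treg-sufficient ones, and to 1692 and 1989 CPM against 2203 and 1876 CPM in experiment 2, where the conditions overlapped. All 4 had negative log2 fold changes in experiment 1, with a smallest adjusted p of 0.0781. The part of these genes in the Bmp4 difference was not tested. In sorted bulk samples, fewer cells of a type and less RNA per cell cannot be told apart.

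Bmp2, a ligand expressed in differentiating follicle epithelium and in subcutaneous fat, went the other way in experiment 1. It had 35.9, 27.0, 12.3 and 5.43 CPM in Treg-depleted libraries 1 to 4, against 13.3, 15.5, 13.0 and 6.79 CPM in Treg-sufficient libraries 1 to 4. Both Treg-depleted libraries of experiment 1 lay above every other library, and in experiment 2 the conditions overlapped. The log2 fold change was 0.50 over both experiments (SE 0.37, adjusted p = 0.762, edgeR), 1.13 within experiment 1 (SE 0.42, adjusted p = 0.362) and -0.16 within experiment 2 (SE 0.43). The difference between the experiments' effects was -1.29 (SE 0.60, unadjusted p = 0.0648, adjusted p = 0.908). The profiles of the 2 ligands over the 8 libraries were the least alike of all pairs of members, with a root mean square difference of 2.38 log2 units after each gene was centred on its mean.

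**Figure D2:**
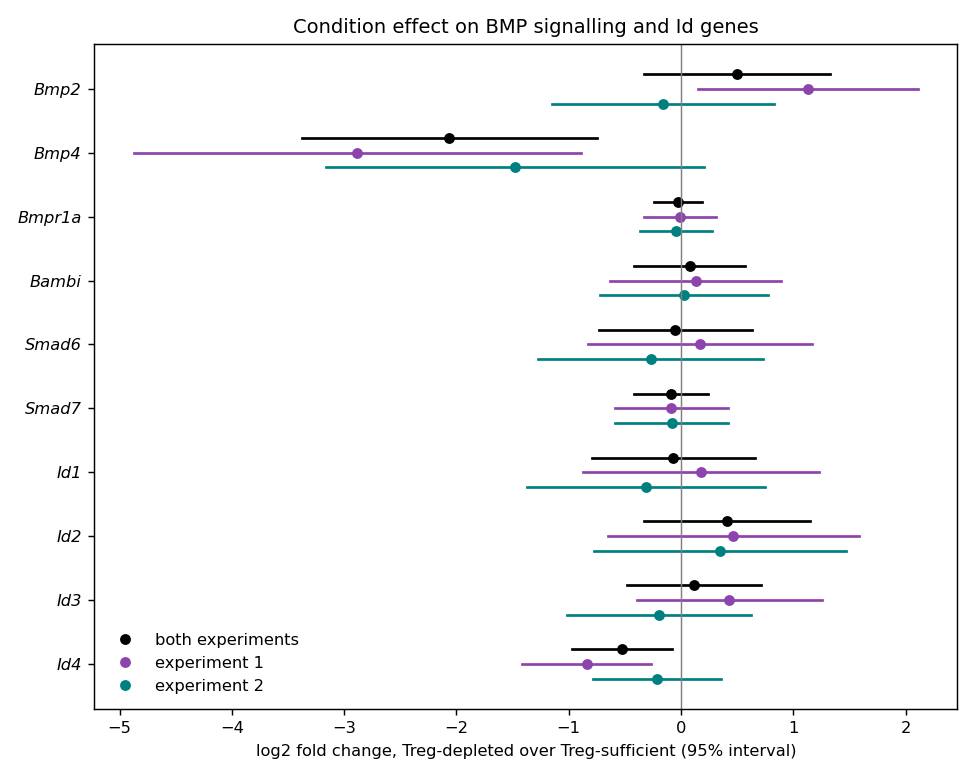
Log2 fold change of Treg-depleted over Treg-sufficient libraries for each gene (horizontal axis), with 95% intervals, for both experiments together and for each experiment. The interval of Bmp4 lies below 0 over both experiments and within experiment 1, that of Id4 does so less far from 0, and that of Bmp2 lies above 0 within experiment 1 only; none of these passed an adjusted p of 0.05.

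Bmpr1a, the main type I BMP receptor of the follicle epithelium, was steady. It had 216, 255, 268 and 294 CPM in Treg-depleted libraries 1 to 4, against 236, 239, 282 and 297 CPM in Treg-sufficient libraries 1 to 4. The log2 fold change was -0.03, and its 95% interval of -0.24 to 0.19 was the narrowest of the 10. The SD of its log2 CPM over the 8 libraries was 0.16 (percentile 18.7 among tested genes). For Bmp4 that SD was 1.81 (percentile 99.3), for Bmp2 0.90 (percentile 87.8) and for Smad7 0.17 (percentile 20.4). These percentiles were taken over tested genes of any level, and counting noise is larger where counts are few. Bmpr1a averaged 261 CPM and Bmp4 3.58 CPM, so level may account for part of the gap between them.

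Among the inhibitors, Bambi had 5.91, 6.07, 11.6 and 8.91 CPM in Treg-depleted libraries 1 to 4, against 7.12, 3.83, 9.84 and 10.3 CPM in Treg-sufficient libraries 1 to 4. Smad6 had 6.87, 13.8, 7.25 and 5.78 CPM in Treg-depleted libraries, against 11.0, 7.31, 10.2 and 5.53 CPM in Treg-sufficient libraries. Smad7 had 20.4, 19.3, 21.5 and 17.8 CPM in Treg-depleted libraries, against 21.4, 20.8, 24.8 and 16.9 CPM in Treg-sufficient libraries. The conditions overlapped in all 3 genes over both experiments, and only Smad7 in experiment 1 had both Treg-depleted libraries below both others, by a small margin. Log2 fold changes were 0.08 for Bambi (95% interval -0.42 to 0.57), -0.05 for Smad6 (-0.73 to 0.63) and -0.09 for Smad7 (-0.42 to 0.24).

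Of the Id genes, Id4 differed most between conditions. It had 38.7, 58.8, 140 and 132 CPM in Treg-depleted libraries 1 to 4, against 77.9, 96.4, 128 and 188 CPM in Treg-sufficient libraries 1 to 4. In experiment 1 both Treg-depleted libraries lay below both Treg-sufficient ones, and in experiment 2 they lay between them. The log2 fold change was -0.53 over both experiments (SE 0.20, 95% interval -0.97 to -0.08, unadjusted p = 0.0265, adjusted p = 0.692, edgeR). Within experiment 1 it was -0.84 (SE 0.25, adjusted p = 0.223) and within experiment 2 it was -0.22 (SE 0.25), a difference of 0.62 (SE 0.35, adjusted p = 0.951). DESeq2 called Id4 in experiment 1 (adjusted p = 0.0488), edgeR without a filter on low counts called it there and over both experiments (adjusted p = 0.00345), and edgeR called it in experiment 1 once the 2 libraries with the fewest genes were left out (log2 fold change -1.17, adjusted p = 0.0258). Exons of Id4 overlap an antisense gene, A330033J07Rik, which had 17, 23, 59 and 52 counts in Treg-depleted libraries and 23, 39, 57 and 70 in Treg-sufficient libraries. Which strand setting was used in counting is not stated.

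Id1, Id2 and Id3 overlapped between conditions. Id1 had 36.7, 91.5, 43.4 and 27.7 CPM in Treg-depleted libraries 1 to 4, against 53.7, 59.6, 58.8 and 29.7 CPM in Treg-sufficient libraries 1 to 4. Id2 had 90.6, 115, 95.3 and 30.8 CPM in Treg-depleted libraries, against 80.5, 68.4, 64.6 and 34.7 CPM in Treg-sufficient libraries. Id3 had 93.9, 143, 87.2 and 56.8 CPM in Treg-depleted libraries, against 100, 75.2, 109 and 56.6 CPM in Treg-sufficient libraries. The highest value of each of these 3 genes was in Treg-depleted library 2, the library with the fewest genes detected, and the lowest values were in the libraries numbered 4 of the 2 conditions. Log2 fold changes were -0.07 for Id1 (95% interval -0.79 to 0.66), 0.41 for Id2 (-0.33 to 1.14) and 0.12 for Id3 (-0.48 to 0.71). The intervals are wide, so the libraries do not show that the 3 genes were alike in both conditions. With both libraries that held Xist left out, the log2 fold change of Id3 was -0.18. Within experiment 1 that of Id1 was then -0.59, where it was 0.18 with all libraries, and that of Id3 was -0.14, where it was 0.43.

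**Figure D3:**
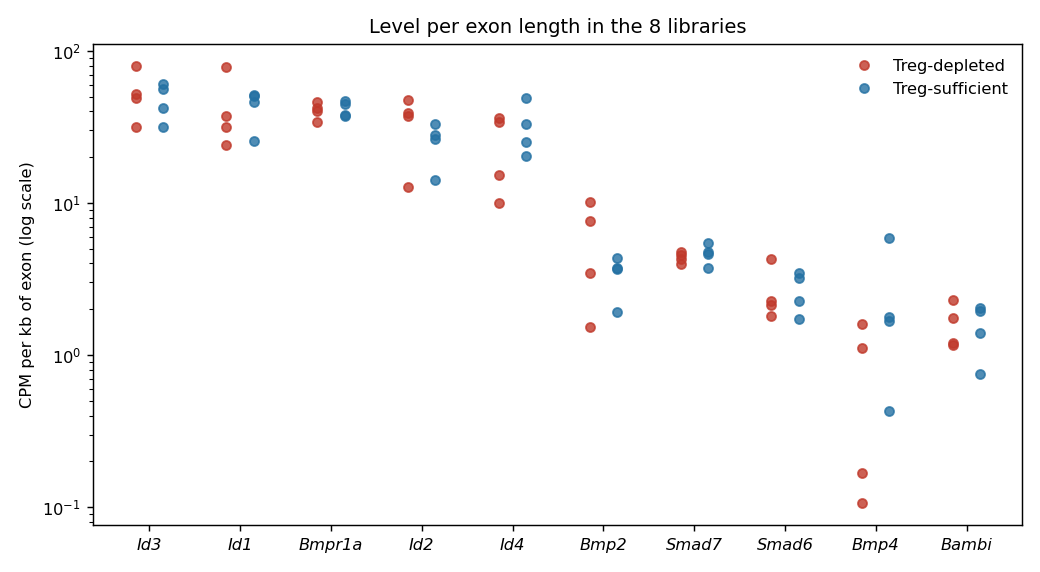
Level of each gene per kb of its annotated exons in every library (vertical axis, CPM per kb, log scale), Treg-depleted left and Treg-sufficient right, in falling order of the mean. The 4 Id genes and Bmpr1a average 27.9 to 50.4 CPM per kb, and the other 5 genes 1.57 to 4.55 CPM per kb.

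Per length of annotated exon, the order of mean levels over the 8 libraries was Id3, Id1, Bmpr1a, Id2, Id4, Bmp2, Smad7, Smad6, Bmp4 and Bambi. Id3 averaged 50.4 ± 16.0 CPM per kb, Id1 43.2 ± 17.9, Bmpr1a 41.1 ± 4.63, Id2 29.7 ± 12.0 and Id4 27.9 ± 12.7 CPM per kb (SD, n = 8). The ligand and inhibitor genes stood lower, at 4.55 ± 2.90 CPM per kb for Bmp2, 4.51 ± 0.541 for Smad7, 2.64 ± 0.909 for Smad6, 1.59 ± 1.86 for Bmp4 and 1.57 ± 0.522 for Bambi. Ranges of every pair of neighbours in this order overlapped. At the step between the groups, Id4 was above Bmp2 in 7 of 8 libraries; the ranges met because Id4 was lowest and Bmp2 was highest in Treg-depleted library 1.

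Within experiment 1, both Treg-depleted libraries lay above both others for 2 of the 10 genes (Bmp2 and Id2), beside 18.6% of all tested genes, and below them for 3 (Bmp4, Id4 and Smad7), beside 19%. Within experiment 2 none lay above, beside 16.7%, and 1 lay below (Bmp4), beside 15.9%. No member passed an adjusted p of 0.05 in experiment 1, where percent called was 0.606 (100 genes), nor in experiment 2, where percent called was 0 (288 genes, or 1.75%, had an unadjusted p under 0.05, and DESeq2 called 1 gene). In experiment 1 the unadjusted p was under 0.05 for 3 members (Bmp4, Id4 and Bmp2), against 11.1% of tested genes. The median log2 fold change of the 10 genes was 0.15 in experiment 1 and -0.18 in experiment 2, beside 0.01 and 0.00 for all tested genes. The difference between the experiments' effects was called for no gene by edgeR (923 genes, or 5.6%, had an unadjusted p under 0.05, none of them a member) and for 182 genes by DESeq2, none of them a member.

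The experiments themselves differed more. Id4 rose to 147 ± 27.7 CPM in experiment 2, against 67.9 ± 24.8 CPM in experiment 1 (SD, n = 4 each, both conditions together), with no overlap. The log2 fold change of experiment 2 over experiment 1 was 1.17 (SE 0.20, adjusted p = 0.0446, edgeR), and Id4 was the 1 member called, where percent called was 1.62 (0.903 for genes higher in experiment 2). That call ended, with adjusted p of 0.0646 to 0.156, when Treg-depleted library 1, 2, 3 or 4 or Treg-sufficient library 2 or 4 was left out, and the log2 fold change then lay between 1.00 and 1.33 over all single omissions. The log2 fold change was 2.46 for Bmp4 (SE 0.58, adjusted p = 0.0644) and 0.83 for Bambi (SE 0.22, adjusted p = 0.0774), with 10.2 ± 1.13 CPM in experiment 2 and 5.73 ± 1.38 CPM in experiment 1. For Bmp2 it was -1.19 (SE 0.37, adjusted p = 0.106). All 4 libraries of experiment 2 lay above all 4 of experiment 1 for 3 members (Id4, Bmpr1a and Bambi), beside 7.5% of tested genes, and below them for 1 (Bmp2), beside 5.86%. The experiment term cannot be told apart from any other difference between the 2 experiments, such as in mice, sorting or library preparation if these differed. Markers of melanocytes summed to 125 to 379 CPM in experiment 2 and 57.6 to 85.1 CPM in experiment 1. Of these, 3 (Dct, Tyrp1 and Pmel) were called higher in experiment 2, and Mitf leaned the other way (log2 fold change -0.52). Dermal papilla markers summed to 57.1 to 78.9 CPM in experiment 2 and 8.51 to 45.0 CPM in experiment 1. Fibroblast sums overlapped, at 75.8 to 137 CPM in experiment 2 and 30.9 to 101 CPM in experiment 1. Of 8 tested fibroblast markers, 6 had positive and 2 negative log2 fold changes, and Col6a3 was called (4.48, adjusted p = 0.0439, edgeR). Cell cycle markers summed to 1692 to 2203 CPM in experiment 2 and 306 to 1627 CPM in experiment 1. Follicle stem cell markers summed to 14189 to 18406 CPM in experiment 2 and 17603 to 31237 CPM in experiment 1. Of the 7, 3 had positive and 4 negative log2 fold changes. The part of these markers in the Id4 difference was not tested.

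**Figure D4:**
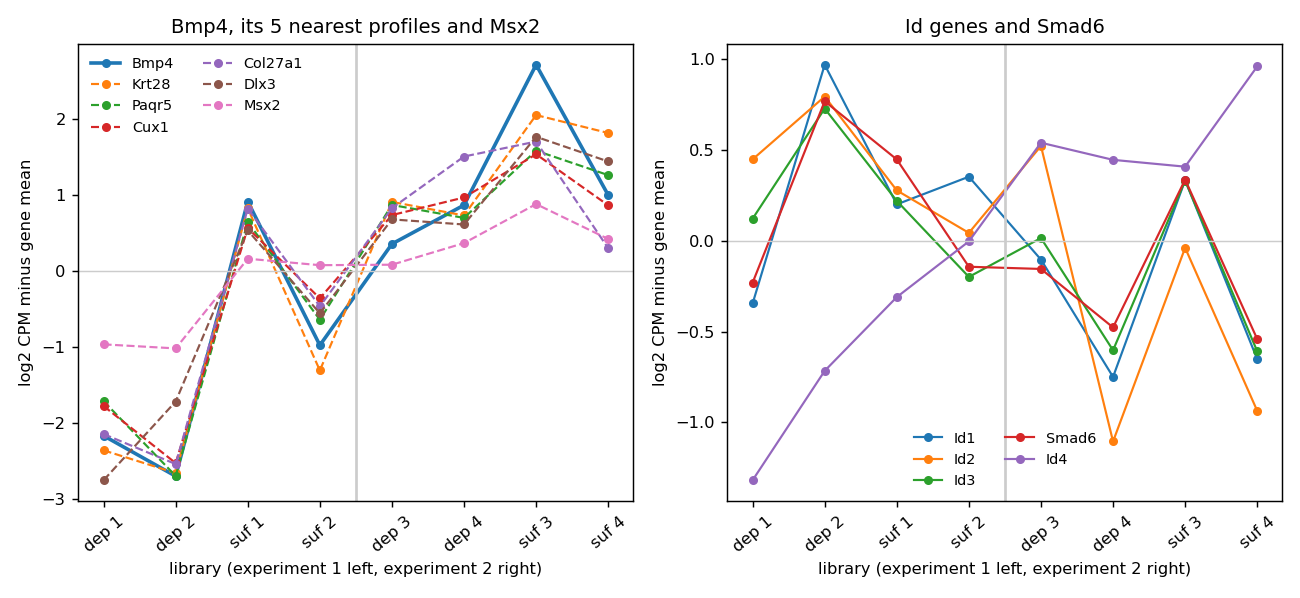
Log2 CPM minus the mean of the gene (vertical axis) in the 8 libraries (dep, Treg-depleted; suf, Treg-sufficient; experiment 1 left, experiment 2 right), for Bmp4 with the 5 genes of most similar profile and Msx2, and for the 4 Id genes with Smad6. Lines join libraries only to guide the eye. Krt28, Paqr5, Cux1, Col27a1 and Dlx3 are at their lowest in Treg-depleted libraries of experiment 1, as Bmp4 is. Id4 lies below its mean in both of these libraries, whereas Id1, Id2, Id3 and Smad6 all lie above theirs in Treg-depleted library 2 and only Id2 and Id3 do so in Treg-depleted library 1.

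Bmp4 had both the smallest p-value between conditions and the largest spread over libraries of the 10 genes. The genes nearest to it among 11274 with a mean of at least 5 CPM were Krt28 (root mean square difference of centred log2 CPM 0.44 over the 8 libraries), Paqr5 (0.50), Cux1 (0.53), Col27a1 (0.55) and Dlx3 (0.60), where the median over genes was 1.71. Krt28 encodes a keratin of the inner root sheath and Dlx3 a homeobox factor of the hair matrix. Log2 fold changes between conditions were -1.83 for Krt28, -1.41 for Paqr5, -1.32 for Cux1, -1.26 for Col27a1 and -1.58 for Dlx3. These 5 genes were picked for profiles like that of Bmp4 over the same 8 libraries, so negative values follow from the choice. Among the members, Id3 and Smad6 were the closest pair, at 0.17 log2 units, followed by Id1 and Smad6 at 0.24; both pairs were singled out after their values were seen. Smad6 was the 4th nearest of 11273 genes to Id3, where the median gene was at 0.48, and the 7th nearest to Id1, where it was at 0.58. The differences were not scaled to spread. The medians over genes therefore lie near the SD of the gene compared (1.81 for Bmp4, 0.46 for Id3 and 0.58 for Id1). They reflect that spread and are no yardstick of likeness. Libraries share depth and composition, so likeness of profiles is a description.

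Genes of the pathway outside the 10 were described by class, over a list of 64 genes of which 54 were tested. Between conditions 26 had positive and 28 negative log2 fold changes, with a median of -0.01 beside 0.00 for all tested genes, and none passed an adjusted p of 0.05. Unadjusted p-values under 0.05 were found for 2 genes above and 6 below, against 7.12% of all tested genes. Adjusted p-values of the genes named next were 0.686 or more between conditions (edgeR).

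Of 12 genes listed as other BMP ligands 6 were tested, 1 with a positive and 5 with negative log2 fold changes (median -0.36). The tested genes included Bmp1, which encodes a proteinase, and Gdf11, a ligand of the activin branch. The split and the median are therefore not those of BMP ligands alone. The most abundant was Bmp1, a procollagen proteinase that also cleaves the BMP antagonist chordin, at -0.29 (SE 0.17). The 9 other receptors and co-receptors had 7 positive and 2 negative values (median 0.14), led in abundance by the type II receptor gene Bmpr2 at 0.14 (SE 0.13). All 6 Smad and Smurf genes had small positive values (median 0.13), with Smad5 at 0.14 (SE 0.11).

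Rgma, a membrane co-receptor that binds BMP ligands, was the 1 listed gene that passed in experiment 1. It had 46.8 and 55.2 CPM in Treg-depleted libraries of experiment 1, against 119 and 100 CPM in Treg-sufficient libraries, and in experiment 2 it had 147 and 156 CPM against 139 and 167 CPM. Both Treg-depleted libraries of experiment 1 were below all others. Rgma fell by 1.10 on the log2 scale in experiment 1 (SE 0.16, adjusted p = 0.0365, edgeR; 0.382% of tested genes were called lower), against a log2 fold change of -0.01 in experiment 2 (SE 0.16). The difference between these effects, 1.09 (SE 0.22), had an unadjusted p of 0.00130 and an adjusted p of 0.315. The call in experiment 1 ended when any 1 library other than Treg-depleted library 2 was left out, with adjusted p of 0.0696 to 0.207 and log2 fold changes of -1.26 to -0.98, and when experiment 1 was fitted alone (adjusted p = 0.216).

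**Figure D5:**
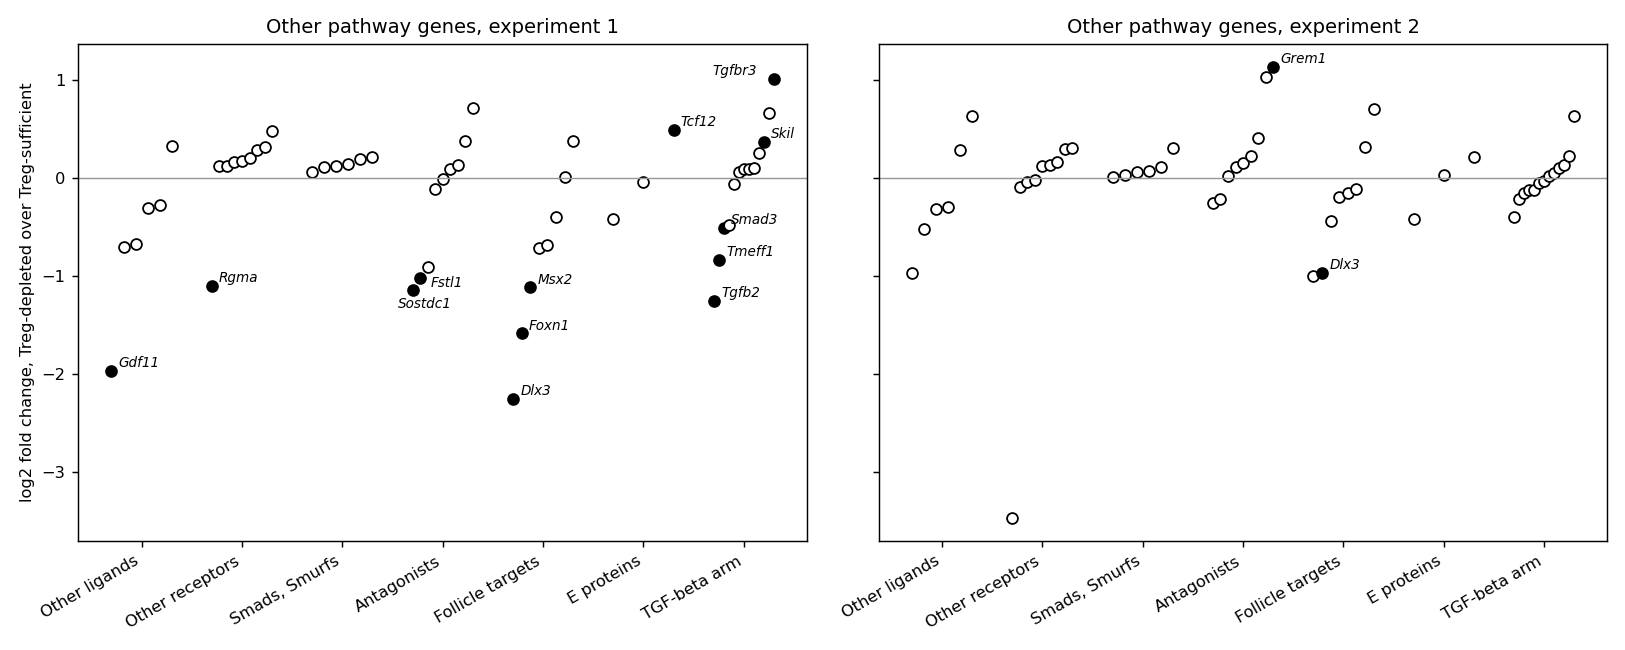
Log2 fold change of Treg-depleted over Treg-sufficient libraries (vertical axis) for the 54 tested genes of the pathway list by class, in experiment 1 and in experiment 2. Filled points have an unadjusted p under 0.05, and only Rgma in experiment 1 passed an adjusted p of 0.05. More points are filled in experiment 1 (13) than in experiment 2 (2), as over all tested genes (11.1% and 1.75%).

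Of 13 extracellular antagonists 9 were tested, with 4 positive and 5 negative values (median -0.04), and the most abundant, Twsg1, was at -0.05 (SE 0.10). The 8 follicle genes known to lie downstream of BMP receptor signalling had the lowest median of the classes, -0.51, with 2 positive and 6 negative values. Their median was also lowest in experiment 1, at -0.70. In experiment 2 it was -0.17, and the class of other BMP ligands was lower, at -0.30. The lists were chosen with earlier results of these data known. Among the 8 follicle genes Nfatc1, a bulge factor that BMP signalling maintains and the most abundant of the 8, was at 0.16 (SE 0.16). Dlx3 had 5.26, 10.8, 57.3 and 54.7 CPM in Treg-depleted libraries 1 to 4, against 51.8, 24.3, 122 and 97.2 CPM in Treg-sufficient libraries 1 to 4, so that within each experiment both Treg-depleted libraries were lower. Its log2 fold change was -1.58 over both experiments (SE 0.36, unadjusted p = 0.00171), -2.25 in experiment 1 (SE 0.42, adjusted p = 0.0660) and -0.97 in experiment 2 (SE 0.39, unadjusted p = 0.0396). Dlx3 was higher in experiment 2 than in experiment 1 by 2.14 log2 units (SE 0.36, adjusted p = 0.0446), a call that ended in 7 of 8 omissions of 1 library, all but that of Treg-sufficient library 1, with adjusted p of 0.0615 to 0.141. The homeobox gene Msx2 was at -0.77 over both experiments (SE 0.18, unadjusted p = 0.00197), -1.11 in experiment 1 (adjusted p = 0.0636) and -0.44 in experiment 2, and Msx1 was at -0.85 (SE 0.37, unadjusted p = 0.0474). DESeq2 called Dlx3 and Msx2 between conditions, at adjusted p of 0.00428 for Dlx3 and 0.0317 for Msx2.

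The 3 E protein genes, whose products Id proteins bind, had 1 positive and 2 negative values. Tcf12, the most abundant, was at 0.35 (SE 0.11, unadjusted p = 0.0101) with 633, 563, 425 and 373 CPM in Treg-depleted libraries 1 to 4, against 413, 434, 353 and 336 CPM in Treg-sufficient libraries 1 to 4. Tcf3 was at -0.42 (SE 0.13, unadjusted p = 0.0128), with means of 137 ± 26.1 CPM in the Treg-depleted and 183 ± 32.6 CPM in the Treg-sufficient libraries (SD, n = 4 each). Within each experiment Tcf12 was higher and Tcf3 lower in both Treg-depleted libraries. The 13 genes of the TGF-beta arm, which signals through Smad2 and Smad3, had 5 positive and 8 negative values (median -0.03), and the most abundant, the repressor Ski, was at -0.09 (SE 0.10). Tgfb2, a ligand that in mouse follicles is known to counter BMP signals during stem cell activation, was at -0.82 (SE 0.22, unadjusted p = 0.00506), with means of 5.19 ± 2.16 CPM in the Treg-depleted and 8.65 ± 0.849 CPM in the Treg-sufficient libraries (SD, n = 4 each). Skil, another repressor, was at 0.30 (SE 0.11, unadjusted p = 0.0212).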

How the data were processed

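RNA of 8 libraries was measured by RNA sequencing. The authors deposited a table of raw read counts per gene, whole numbers with no normalization. Per the labels' protocols, RNA came from RNeasy columns and was prepared with a stranded poly(A) kit (TruSeq Stranded mRNA). The submitters' processing notes name TopHat2 (version 2), SAMtools, HTSeq, DESeq2 and the build GRCm38.p4, without roles. Reads in no gene (6.63 to 10.8% of those listed), in several genes (2.72 to 3.01%) and aligned to several places (26.2 to 30.6%) stood as tallies and entered neither library sizes nor tests. Library totals were 22330729 to 29975347 counts. Symbols, positions and exon lengths came from GENCODE M21, which paired 45229 of 46078 identifiers with a symbol.

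Genes were filtered with filterByExpr (minimum count 10) and tested with edgeR 4.0.16 in R 4.3.3 (TMM, quasi-likelihood test, Benjamini-Hochberg adjustment over 16495 genes, threshold 0.05). A model with experiment and condition had 5 residual degrees of freedom; a model of 4 groups, with 4, gave the effects within experiments and their difference. Each SE is the log2 fold change divided by the root of F. Marker sums and pathway levels are on TMM-scaled CPM, Xist and Y-linked levels on unscaled totals. The steps were tested on simulated counts. Alternatives were other scalings, DESeq2 1.42.0, limma-voom 3.58.1, no low-count filter, a replicate block, no experiment term, and libraries left out. Within each condition, no 2 libraries held the same counts within sampling noise.

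Library letters shared by the 2 conditions were not used as pairs. The members and lists were chosen with earlier results of these data known. All 10 members are named; of each pathway class, the gene of highest mean CPM and genes with an unadjusted p under 0.05 between conditions or an adjusted p under 0.05 in any comparison; and the 5 genes of nearest profile to the member of smallest p and of largest SD, both Bmp4.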

Additional observations from a re-analysis of the deposited data

How the results depend on the processing

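Between conditions, 0 genes and 0 members were called by edgeR with every scaling, with the replicate block, without the experiment term and in every omission of libraries, and by limma-voom. DESeq2 called 84 genes and 1 member, and edgeR without the low-count filter 820 genes and 2 members. In experiment 1, where 100 genes and 0 members were called, DESeq2 gave 721 genes and 2 members, no filter 1152 and 3, the replicate block 2 and 0, experiment 1 alone 0 and 0, omission of both libraries with Xist 487 and 0, and omission of both with the fewest genes 570 and 1. In experiment 2, DESeq2 called 1 gene and no filter 132; for the difference between the experiments' effects DESeq2 called 182, no filter 534 and omission of both Xist libraries 89. Between experiments, where 268 genes and 1 member were called, DESeq2 gave 2167 and 5, no filter 2443 and 7, omission of both Xist libraries 2 and 0, and omission of both with the fewest genes 0 and 0. Omitting 1 library gave 0 to 442 genes in experiment 1, 0 to 9 for the difference of effects, and 0 to 651 genes and 0 to 2 members between experiments. The cause of these moves was not tested.

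Whether the letters that the 2 conditions share mark pairs of libraries could not be settled. Correlations of same-letter deviations from condition means were 0.18, 0.13, 0.09 and 0.31. Of 4 Treg-depleted libraries, 2 correlated best with their own letter. These deviations also hold the difference between experiments, which same-letter libraries share. Apart from the count in experiment 1 and Rgma there (adjusted p = 0.156), the replicate block changed no call.

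Bmp4 stayed negative between conditions in all 18 alternatives, from -2.51 to -1.31, with adjusted p of 1.52e-06 to 1.000, and Id4 from -0.82 to -0.36, with adjusted p of 0.00345 to 1.000. In experiment 1 the adjusted p of 17 alternatives ran from 1.12e-05 to 1.000 for Bmp4, 0.000206 to 0.563 for Id4 and 1.78e-07 to 0.216 for Rgma. Between conditions it ran from 1.62e-22 to 1.000 for Dlx3 and 0.000378 to 1.000 for Msx2; the lowest values all came without the low-count filter. The signs of smaller effects did not hold. Without both Xist libraries the log2 fold change was -0.18 for Id3 and -0.087 for Bambi between conditions, and -0.59 for Id1, -0.14 for Id3, -0.73 for Smad6 and -0.31 for Bambi in experiment 1. Without both libraries of fewest genes it was 0.084 for Smad7 between conditions, -0.63 for Id1 and -0.42 for Smad6 in experiment 1, and 0.38 for Bmp2, 0.26 for Id1, 0.35 for Id3, 0.24 for Smad6, 0.22 for Smad7 and -0.0098 for Bambi in experiment 2. With limma-voom Id1 was at -0.0044 in experiment 1, and with upper-quartile scaling Rgma was at 0.0012 in experiment 2. Omitting 1 library, values between conditions ran from -0.10 to 0.26 for Bambi, -0.094 to 0.0047 for Bmpr1a, -0.45 to 0.21 for Id1, -0.094 to 0.40 for Id3, -0.35 to 0.19 for Smad6 and -0.19 to 0.032 for Smad7. In experiment 1 they ran from -0.29 to 0.64 for Bambi, -0.17 to 0.079 for Bmpr1a, -0.66 to 0.67 for Id1 and -0.45 to 0.56 for Smad6. In experiment 2 they ran from -0.18 to 0.20 for Bambi, -0.87 to 0.38 for Bmp2, -0.11 to 0.021 for Bmpr1a, -0.73 to 0.26 for Id1, -0.69 to 0.94 for Id2, -0.59 to 0.35 for Id3, -0.47 to 0.086 for Id4, -0.65 to 0.23 for Smad6, -0.34 to 0.22 for Smad7 and -0.14 to 0.13 for Rgma. Between experiments Smad7 ran from -0.14 to 0.084. At 5 to 346 counts per library, depth limits Bmp4 more than any other member.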

Other observations

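Further genes of the pathway list had an unadjusted p under 0.05 within 1 experiment and are given here as values, chosen after they were seen. None passed an adjusted p of 0.05 (edgeR). Sostdc1, a secreted BMP and Wnt antagonist of the bulge, had 52.4 and 155 CPM in Treg-depleted libraries of experiment 1, against 213 and 245 CPM in Treg-sufficient libraries, and the log2 fold change was -1.14 (SE 0.43, adjusted p = 0.359). Fstl1, a secreted follistatin-like protein, had 68.4 and 25.2 CPM in Treg-depleted libraries of that experiment, against 92.5 and 98.3 CPM in Treg-sufficient libraries. Foxn1, a transcription factor of hair shaft differentiation, had 2.13 and 2.82 CPM in Treg-depleted libraries, against 8.72 and 6.11 CPM in Treg-sufficient libraries. Gdf11, a ligand of the activin branch, was near the limit of detection there, at 0.446 and 0.239 CPM in Treg-depleted libraries and 1.45 and 1.30 CPM in Treg-sufficient libraries. Each of these 4 genes was lower in both Treg-depleted libraries of experiment 1. In experiment 2 the conditions overlapped in all 4, with log2 fold changes of -0.26 for Sostdc1, 0.11 for Fstl1, -0.15 for Foxn1 and 0.29 for Gdf11, none of them past an unadjusted p of 0.05.

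In the TGF-beta arm, Tmeff1, which in mouse follicles is known as a target of TGF-beta2 that dampens BMP signalling, had 9.31 and 12.1 CPM in Treg-depleted libraries of experiment 1, against 17.2 and 21.0 CPM in the Treg-sufficient ones (a log2 fold change of -0.84 with SE 0.25 and adjusted p = 0.233). Smad3 was at -0.51 there (SE 0.16, adjusted p = 0.271). Tgfbr3, a co-receptor that presents TGF-beta ligands, had the opposite sign in experiment 1, at 1.01 (SE 0.27, adjusted p = 0.170), with 32.3 and 34.9 CPM in Treg-depleted and 18.8 and 14.5 CPM in Treg-sufficient libraries. In experiment 2 the log2 fold changes of Tmeff1, Smad3 and Tgfbr3 were -0.05, -0.02 and 0.02. Grem1, a secreted BMP antagonist, had 223 and 118 CPM in Treg-depleted libraries of experiment 2, against 88.5 and 65.9 CPM in the Treg-sufficient ones (a log2 fold change of 1.14 with SE 0.39 and unadjusted p = 0.0199). Neither in experiment 1 nor between conditions was any listed antagonist higher in Treg-depleted libraries at an unadjusted p under 0.05 (edgeR), Grem1 included.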
